A study of Musculus with 2 samples.

Results

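The cells described here are macrophages of mouse subcutaneous white adipose tissue (sWAT) that carried Lyz1 and no Lyve1 transcript, called Lyz1-high Lyve1-negative macrophages below. They were chosen by raw counts of UMIs, the molecular tags that each stand for 1 captured transcript. A barcode counted when it had 500 or more detected genes and at most 10% mitochondrial UMIs, with Lyz2 at 10 or more, Csf1r at 1 or more, Dcn under 10 and Flt3 at 0, which together form the macrophage gate. It further needed 5 or more Lyz1 UMIs, 0 Lyve1 UMIs, under 2 Plac8 UMIs, under 15 summed UMIs of Rsad2, Ifit1 and Ifit3, and under 3 summed UMIs of Mki67 and Top2a. The rule found 493 cells. The control library held 279 of them among 3619 gated macrophages and 12426 kept cells, and the LPCAT3-AKO library held 214 among 2889 and 11664.

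The cells came from the stromal vascular fraction (SVF) of sWAT, which is what is left of the digested tissue once mature fat cells have been spun off, and were profiled by 10x Genomics single-cell RNA sequencing. The control group (genotype WT) and the LPCAT3-AKO group (genotype LPCAT3 knockout) had 1 library each. LPCAT3 is an acyltransferase that loads phosphatidylcholine with polyunsaturated acyl chains. The sample labels give an age of 5 weeks and the series text 2 months and a diet written as CD. The sources used here do not give the promoter behind the deletion, the exons removed, the sex or the number of mice per library.

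Macrophages of adipose tissue fall into several populations. Those marked by LYVE1, the scavenger receptors CD163 and MRC1, the folate receptor FOLR2 and TIMD4 are known as resident cells that lie along vessels and take up debris, lipid and iron. Others carry little LYVE1, are fed by CCR2-positive blood monocytes and hold much MHC class II, the molecules that present antigen to helper T cells. Lyz1 and Lyz2 encode lysozymes that cleave bacterial cell walls. Lyz2 is the lysozyme of myeloid cells in general, while Lyz1 is best known from Paneth cells of the gut. Retnla encodes RELM-alpha, a secreted protein that macrophages make in response to the cytokines IL-4 and IL-13.

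The control library held 13831 barcodes and 111669076 UMIs and the LPCAT3-AKO library 12806 barcodes and 119355147 UMIs. The libraries shared 58 barcodes, of which 0 control and 2 LPCAT3-AKO barcodes were among the cells of the rule. These cells had a median of 9305 (control) and 10673 (LPCAT3-AKO) UMIs. All pairs of values below keep that order. Lyve1-positive macrophages, with 1 or more Lyve1 UMIs, the other limits of the rule and no limit on Lyz1, numbered 1245 and 804 and had medians of 5931 and 6960 UMIs. The rule counts UMIs without regard to depth, so deeper cells reached 5 Lyz1 UMIs more easily. Levels are therefore given as CPM, the UMIs of a gene per 1000000 UMIs of the group in that library, with exact Poisson 95% intervals. A doublet score marked 14 control and 2 LPCAT3-AKO cells of the rule. They were kept unless stated.

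With 1 library per group there was no replicate and no test, and every interval covers counting error only. A gene passed the size rule used here when its higher group had at least 20 CPM, its ratio reached 1.5 in either direction and the 95% counting interval of that ratio excluded 1. Between cell groups both libraries had to pass in the same direction. "Higher" and "lower" below refer to genes that passed. The groups were cut from the same counts, so all differences between cell groups describe the cells and test nothing.

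The label of the cells was checked against its 6 marker genes. Lyz1, which the rule used, stood at 4311 CPM (4233 to 4391) and 3592 CPM (3516 to 3670), against 315 and 283 CPM in Lyve1-positive macrophages. Ear2, a secreted ribonuclease of the eosinophil-associated family, stood at 1172 CPM (1132 to 1214) and 989 CPM (949 to 1030), against 116 and 111 CPM. Il1rn, the antagonist of the interleukin-1 receptor, stood at 522 CPM (495 to 551) and 524 CPM (496 to 554), against 78.6 and 82.6 CPM. In all of these the Lyz1-high Lyve1-negative cells of each library lay above the Lyve1-positive cells of both. Their ratios were 13.7 and 12.7 for Lyz1, which only they were required to carry, 10.1 and 8.88 for Ear2, and 6.64 and 6.35 for Il1rn.

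The other 3 markers set the cells apart less or not at all. Fcrls, an Fc-receptor-like scavenger molecule, stood at 942 and 1083 CPM against 400 and 413 CPM, a ratio of 2.36 (2.23 to 2.48) and 2.62 (2.48 to 2.77). Retnla stood at 26823 and 28720 CPM against 16270 and 15615 CPM, a ratio of 1.65 (1.63 to 1.66) and 1.84 (1.82 to 1.86). It was thus an abundant transcript of both populations. The chemokine gene Ccl9 stood at 2455 and 2101 CPM against 2351 and 1853 CPM and did not pass, with ratios of 1.04 (1.01 to 1.07) and 1.13 (1.10 to 1.17). Retnla is thus a shared transcript and Ccl9 does not mark these cells off from Lyve1-positive ones.

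**Figure D1:**
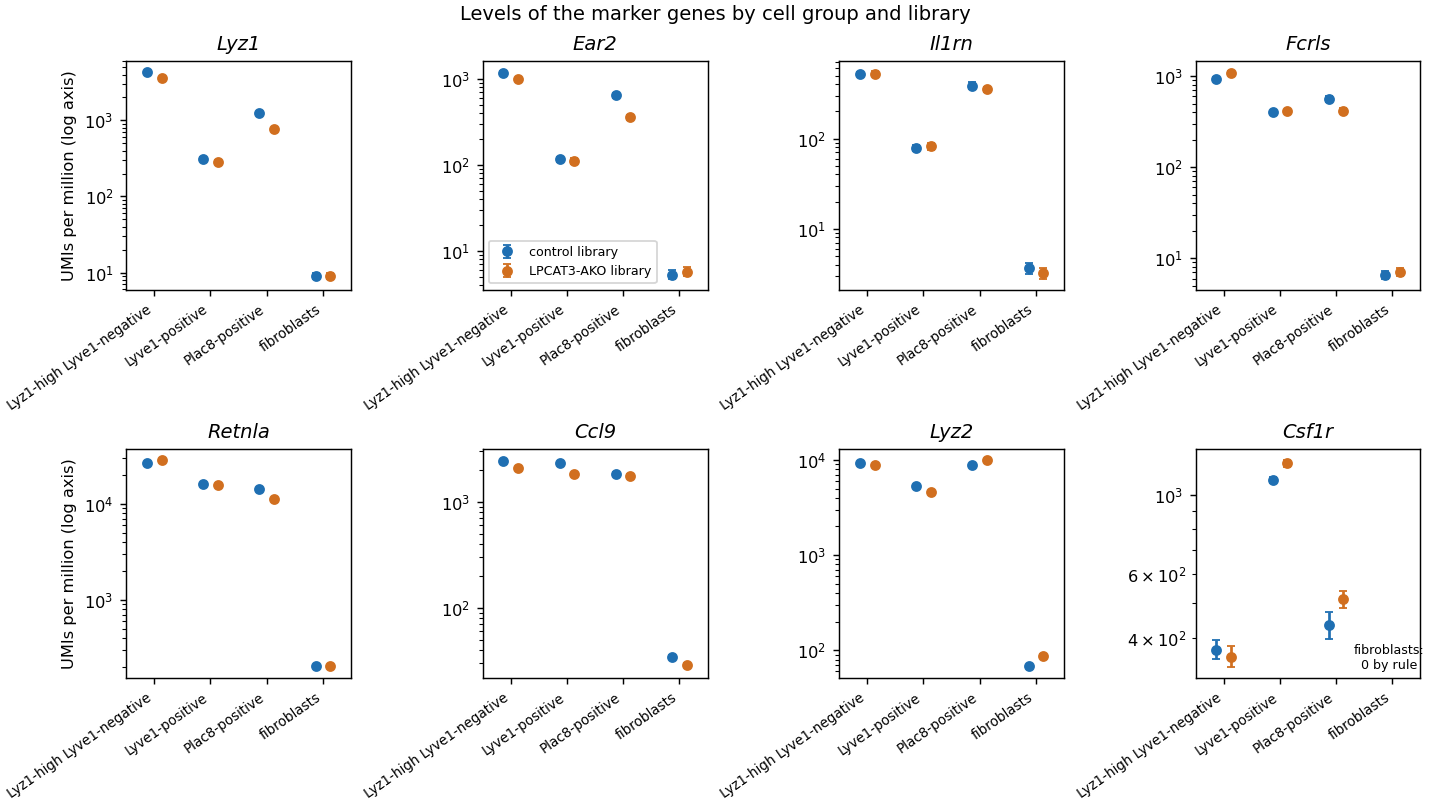
Levels of the 6 marker genes and of Lyz2 and Csf1r in CPM (log axis) in 4 cell groups, with the control library in blue, the LPCAT3-AKO library in orange and exact Poisson 95% intervals as bars. Lyz1, Ear2 and Il1rn are several-fold above the Lyve1-positive cells (Lyz1 4311 and 3592 against 315 and 283), while Ccl9 is level; Csf1r is 0 in fibroblasts because the fibroblast rule required it.

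Free RNA in droplets can add to such levels, so those of fibroblasts are set beside them. How much of a fibroblast's level is free RNA was not measured. Fibroblasts, chosen by 10 or more Dcn and 5 or more Col1a1 UMIs with Csf1r at 0 (median depth 9626 and 9404.5 UMIs), had 9.05 and 8.93 CPM of Lyz1, 5.30 and 5.76 CPM of Ear2, 3.62 and 3.20 CPM of Il1rn and 203 and 206 CPM of Retnla. After thinning each cell to 5000 UMIs, which left out 46 control and 27 LPCAT3-AKO cells of the rule, 94.8% (91.2 to 97.3, Clopper-Pearson) and 89.8% (84.6 to 93.8) of these cells had an Ear2 UMI. The share was 12.6% and 10.1% in Lyve1-positive macrophages and 2.05% and 1.42% in fibroblasts. Without thinning, 95.3% and 92.5% of the Lyz1-high Lyve1-negative cells had an Ear2 UMI. For Il1rn the thinned shares were 73.4% (67.2 to 78.9) and 71.1% (64.1 to 77.5) against 15.6% and 12.1% in Lyve1-positive macrophages and 1.84% and 1.26% in fibroblasts, and the unthinned shares 75.3% and 75.7%. Both shares were therefore far above those of fibroblasts.

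Lyz1 and Lyz2 are near-identical copies, so reads that fit both are uncertain, and the sources used here do not say how they were assigned. Lyz2 was 9314 and 8895 CPM in the Lyz1-high Lyve1-negative cells and 5277 and 4625 CPM in Lyve1-positive ones. A group of 291 control and 235 LPCAT3-AKO gated cells that met the other limits had 0 Lyz1 UMIs at a Lyz2 level of 7034 and 6091 CPM. These cells were picked for their lack of Lyz1 and by the Lyz2 limit of the gate, so the values only describe them.

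Lyz1 varied widely inside the population. The control cells held 5 to 268 Lyz1 UMIs with a median of 29, and the LPCAT3-AKO cells 5 to 341 with a median of 22.5. Just outside the threshold, 25 control and 11 LPCAT3-AKO cells had 3 to 4 Lyz1 UMIs. Just inside it, 50 and 43 cells had 5 to 9. Retnla stood at 17338 and 28381 CPM just outside and 22248 and 24799 CPM just inside, and Ear2 at 637 and 1011 CPM outside and 847 and 853 CPM inside. The order of the 2 sides therefore differed between the libraries in Retnla and Ear2, and it did so in Ccr2 and Il1rn as well. Other genes kept 1 order in both libraries. Fn1 stood at 1642 and 2194 CPM outside and 3012 and 3499 CPM inside. Cd163 stood at 190 and 111 CPM outside and 85.5 and 42.9 CPM inside, and Folr2 at 262 and 152 CPM outside and 193 and 100 CPM inside.

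Retnla, Fn1 and Folr2 differed between the ends of the Lyz1 range. From cells with 0 Lyz1 UMIs to cells with 50 or more, Retnla went from 9234 to 29240 CPM (control) and from 9693 to 32418 CPM (LPCAT3-AKO). Its course between these ends was uneven, with 20399 CPM at 1 to 2 Lyz1 UMIs and 17338 CPM at 3 to 4 in the control, and 28381 CPM at 3 to 4 and 24799 CPM at 5 to 9 in the LPCAT3-AKO cells. Fn1, the matrix protein fibronectin, went from 1345 to 5139 CPM (control) and from 1164 to 5160 CPM (LPCAT3-AKO). Folr2 went the other way, from 305 to 35.9 CPM (control) and from 406 to 25.7 CPM (LPCAT3-AKO). Median depth moved with Lyz1 as well, from 5287 to 12182 UMIs (control) and from 5795 to 14627 UMIs (LPCAT3-AKO), and its part in these differences was not tested.

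The Lyve1 limit had a similar margin. Among cells with 5 or more Lyz1 UMIs that met the Plac8, interferon and division limits, 47 control and 33 LPCAT3-AKO cells had 1 to 2 Lyve1 UMIs, and 23 and 15 had 3 or more. The former had 107 and 207 CPM of Folr2, against 70.8 and 57.9 CPM in the Lyz1-high Lyve1-negative cells. The latter had 737 and 1096 CPM. The cells with 1 to 2 Lyve1 UMIs thus lay nearer to the Lyve1-negative side in Folr2.

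Against Lyve1-positive macrophages, 667 of 5905 genes (11.3%) were higher and 1346 (22.8%) lower in both libraries. Counted in either direction these were 34.1% of the genes. The median log2 ratio of all genes tested was -0.17 as the mean of the libraries, so the counts lean to the lower side. Centred on the median gene of each library, in an alternative added after the data had been seen, 974 genes were higher and 1040 lower. The rule used these cells, so the shares are background and nothing is read from them. List medians below are to be set against -0.17.

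The resident and scavenger genes formed the largest block of low levels, with 0 higher and 21 lower of 21 tested (median log2 ratio -4.61). One of the 21, Lyve1, was set to 0 by the rule. Folr2, the folate receptor, stood at 70.8 and 57.9 CPM against 1386 and 1532 CPM, a ratio of 0.0511 (0.0440 to 0.0590) and 0.0378 (0.0317 to 0.0447). Cd163, the haemoglobin scavenger receptor, stood at 50.8 and 53.7 CPM against 1393 and 1483 CPM. Selenop, a secreted selenium carrier, stood at 341 and 328 CPM against 4801 and 5986 CPM. All 3 were more than 10 times lower in both libraries.

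Some of the block was lower to a lesser degree. Mrc1, the mannose receptor, stood at 589 and 571 CPM against 2273 and 2290 CPM, a ratio of 0.259 (0.246 to 0.273) and 0.249 (0.236 to 0.264). F13a1, a clotting factor subunit common in resident macrophages, stood at 889 and 863 CPM against 3299 and 3209 CPM. The lectin gene Mgl2 stood at 224 and 231 CPM against 863 and 949 CPM. The cells therefore still carried these transcripts, and Mrc1 in fibroblasts was 25.2 and 21.2 CPM.

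By rank, the lowest genes outside the rule included Ccl8, Slc40a1, C6, Pla2g2d, Cp, Cd209b, Tmod1 and Siglech. Ccl8, a chemokine, stood at 19.6 and 12.3 CPM against 1491 and 1189 CPM, and fibroblasts had 46.1 and 61.3 CPM. Its level in the Lyz1-high Lyve1-negative cells was thus below that of fibroblasts as well. Slc40a1, the iron exporter ferroportin, had 0 UMIs in both libraries, which allows up to 1.13 and 1.27 CPM, against 53.9 and 102 CPM. Cp, the copper enzyme ceruloplasmin that oxidises exported iron, stood at 4.14 and 1.69 CPM against 158 and 147 CPM.

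Complement as a list had 0 higher and 10 lower of 12 tested (median -2.33). C1qa, a subunit of the starter of the classical pathway, stood at 1222 and 885 CPM against 4518 and 4877 CPM, a ratio of 0.270 (0.261 to 0.280) and 0.181 (0.173 to 0.190). C1qb stood at 1490 and 1236 CPM against 3281 and 3154 CPM, and C1qc at 642 and 503 CPM against 2688 and 2945 CPM. C4b stood at 161 and 125 CPM against 560 and 572 CPM. C3 did not pass, with 59.1 and 32.1 CPM against 70.1 and 51.2 CPM.

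Of the 12 general macrophage genes, 8 were lower and 2 higher (median -1.46). The receptor of the growth factor CSF1, Csf1r, stood at 370 and 354 CPM against 1099 and 1224 CPM. Mertk, which binds dying cells, stood at 42.2 and 27.0 CPM against 179 and 212 CPM. Higher were Lyz2 and Cd14, the co-receptor for bacterial lipopolysaccharide, at 1410 and 1390 CPM against 751 and 705 CPM. Adgre1, which encodes F4/80, did not pass, at 291 and 281 CPM against 394 and 470 CPM. The cells thus carried the general macrophage genes, many of them at lower levels.

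**Figure D2:**
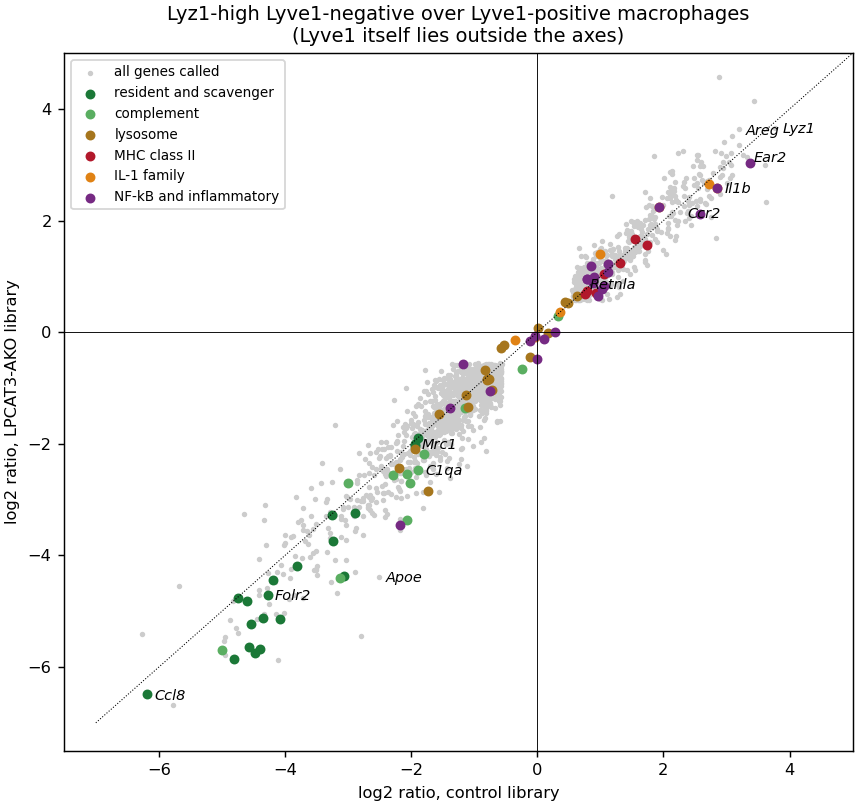
Log2 ratio of each gene in Lyz1-high Lyve1-negative over Lyve1-positive macrophages, in the control library (x axis) and the LPCAT3-AKO library (y axis); grey points are the genes that passed the size rule, coloured points the tested genes of 6 lists, and the dotted line marks equal ratios. Resident and complement genes sit at the lower left (Folr2 -4.27 and -4.70), Il1b (2.86 and 2.59) and Ear2 (3.32 and 3.14) at the upper right, and the libraries gave similar ratios for most genes, with Apoe (-2.51 and -4.38) among those off the line.

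MHC class II ran against that direction, with 7 higher and 0 lower of 7 tested (median 1.05). Cd74, the invariant chain, stood at 14057 and 12734 CPM against 8103 and 7596 CPM, a ratio of 1.73 (1.71 to 1.76) and 1.68 (1.65 to 1.70). H2-Ab1 stood at 6635 and 6074 CPM against 2665 and 2556 CPM. H2-DMb2, a peptide loader that is not on the list and was among the 10 highest genes, stood at 99.4 and 88.7 CPM against 9.51 and 8.97 CPM, a ratio of 10.4 (8.09 to 13.6) and 9.89 (7.30 to 13.6). Ciita, the master activator of these genes, stood at 85.8 and 95.1 CPM against 44.7 and 58.0 CPM.

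Cell by cell, the class II sum over cells thinned to 5000 UMIs had medians of 163 and 149 UMIs. In Lyve1-positive macrophages the medians were 72 and 64.5. The lowest 10% of the Lyz1-high Lyve1-negative cells lay at or below 102.2 and 80 UMIs, and those of the Lyve1-positive cells at or below 4 and 3. Most cells of the rule thus held class II transcripts, while Lyve1-positive cells ranged from almost none to the same height. Dendritic cells also carry class II. Their list of 11 genes summed to 77.5 and 102 CPM, against 144 and 164 CPM in Lyve1-positive cells, with Clec9a and Itgae at 0 in both libraries and Flt3 at 0 by the rule.

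The interleukin-1 family had 4 higher and 0 lower of 7 tested (median 1.2). Il1b, the main inflammatory ligand, stood at 3369 and 2825 CPM against 464 and 469 CPM, a ratio of 7.26 (6.98 to 7.54) and 6.02 (5.76 to 6.29). Il1a stood at 110 and 115 CPM against 28.0 and 23.6 CPM. Agonists and the antagonist Il1rn were thus higher together. Il1rl1, the receptor for interleukin-33, stood at 58.0 and 66.8 CPM against 28.5 and 24.8 CPM.

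Among 23 inflammatory genes known as NF-kB targets, 14 were higher and 3 lower (median 0.87). Il6 stood at 869 and 881 CPM against 82.7 and 107 CPM, a ratio of 10.5 (9.65 to 11.5) and 8.21 (7.51 to 8.98), and at 103 and 98.1 CPM in fibroblasts. Ptgs2, the enzyme that starts prostaglandin synthesis, stood at 821 and 676 CPM against 136 and 154 CPM. Cxcl2, a neutrophil attractant, stood at 6856 and 6950 CPM against 3694 and 3509 CPM. The lower genes were Ccl2, Ccl7 and Cd40, of which Ccl2 and Ccl7 attract monocytes. Nfkbia, the inhibitor of the pathway, did not pass, at 1701 and 1635 CPM against 1584 and 1786 CPM.

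Chemokines split in both directions, with 4 higher (Ccl4, Cxcl1, Cxcl2, Cxcl10) and 7 lower of 15 tested (median -0.88). Cxcl10, a T cell attractant, stood at 395 and 559 CPM against 94.1 and 104 CPM. Ccl2 stood at 564 and 450 CPM against 944 and 941 CPM, and Ccl7 at 172 and 65.9 CPM against 780 and 729 CPM. Growth factors were split too, with 2 higher and 7 lower of 11 (median -1.39). Areg, the epidermal growth factor receptor ligand amphiregulin, stood at 759 and 662 CPM against 81.8 and 52.3 CPM, a ratio of 9.28 (8.50 to 10.1) and 12.7 (11.2 to 14.3). Igf1, by contrast, stood at 35.8 and 18.6 CPM against 306 and 406 CPM.

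Other genes at the top by rank were Thbs1, Ltb4r1, F3, Fn1 and Ndnf. Fn1 stood at 4279 and 4456 CPM against 511 and 481 CPM, a ratio of 8.38 (8.09 to 8.69) and 9.26 (8.89 to 9.65). Fibroblasts had 3650 and 3941 CPM of Fn1, but the 10 fibroblast genes summed to 910 and 945 CPM in the Lyz1-high Lyve1-negative cells and to 1123 and 1137 CPM in the Lyve1-positive ones. Thbs1, the matrix protein thrombospondin 1, stood at 178 and 148 CPM against 15.6 and 7.48 CPM. Ltb4r1, a receptor for the attractant leukotriene B4, stood at 95.6 and 113 CPM against 9.51 and 10.1 CPM. F3, tissue factor, which starts clotting, stood at 48.2 and 57.9 CPM against 4.76 and 4.15 CPM.

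Genes of monocytes were mixed. Ccr2, the receptor for CCL2, stood at 1256 and 1365 CPM against 261 and 307 CPM, a ratio of 4.81 (4.56 to 5.08) and 4.44 (4.20 to 4.71). S100a4 and S100a6 were also higher, Plac8 (limited by the rule) and Ms4a4c lower, and 5 of the 12 listed were tested (median 1.66). Ly6c2, which marks classical monocytes, was 0.753 and 3.80 CPM, and Chil3 had 0 UMIs in both libraries. The cells thus carried Ccr2 with hardly any Ly6c2.

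In the type 2 response list, 4 genes were higher and 6 lower of 10 (median -1.04). Higher were Retnla, Ear2, Irf4 and Socs2, and lower among others Mrc1, Il4ra, Clec10a and Mgl2. Irf4, a transcription factor, stood at 113 and 146 CPM against 47.1 and 58.5 CPM. Clec10a, a lectin, stood at 125 and 126 CPM against 1203 and 1233 CPM. Genes usually grouped as alternative activation therefore went both ways.

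Of 21 transcription factors and regulators, 6 were higher and 5 lower (median 0.08). Bhlhe40, which represses cytokine and metabolic genes, stood at 184 and 159 CPM against 23.9 and 22.3 CPM. Id2 stood at 298 and 245 CPM against 63.2 and 64.0 CPM. Maf, a factor of resident macrophages, stood at 178 and 161 CPM against 1757 and 1963 CPM, and Klf4 at 579 and 476 CPM against 1415 and 1437 CPM. Spi1, which encodes the myeloid factor PU.1, did not pass, at 190 and 218 CPM against 223 and 221 CPM.

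**Figure D3:**
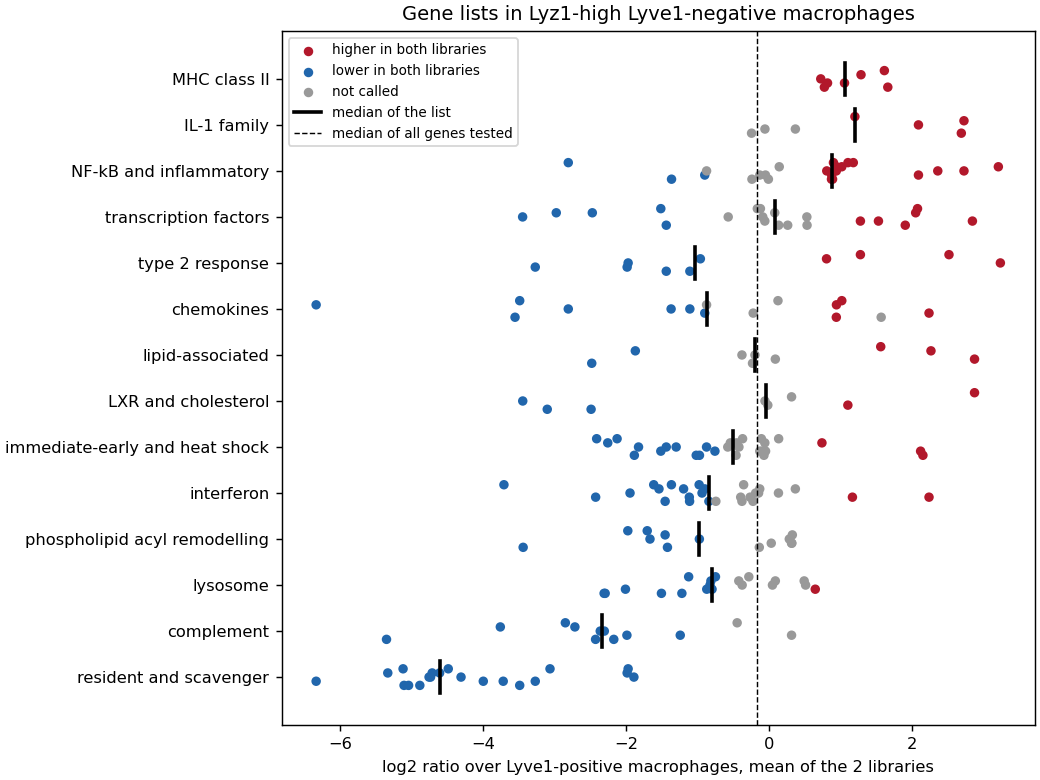
Log2 ratio of Lyz1-high Lyve1-negative over Lyve1-positive macrophages, as the mean of the libraries, for the tested genes of 14 lists (1 point per gene; Lyve1 not drawn), with list medians as black bars and the median of all genes tested (-0.17) as a dashed line. The resident and scavenger genes lie on the lower side (median -4.61), MHC class II on the higher side (median 1.05), and chemokines, type 2 and regulator genes spread to both.

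Lipid handling did not move as a block. Of the 9 lipid-associated genes tested, 3 were higher and 2 lower (median -0.20). Lpl, lipoprotein lipase, stood at 1754 and 2215 CPM against 298 and 243 CPM, a ratio of 5.89 (5.60 to 6.18) and 9.13 (8.61 to 9.68). Lgals3, a galectin, stood at 941 and 979 CPM against 313 and 338 CPM. Trem2, the lipid-sensing receptor, stood at 36.5 and 10.1 CPM against 101 and 54.2 CPM and was lower.

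Targets of the sterol sensor LXR had 2 higher and 3 lower of 8 tested (median -0.04). Abcg1, a cholesterol exporter, stood at 96.0 and 104 CPM against 51.8 and 41.0 CPM. Its relative Abca1 stood at 98.2 and 73.5 CPM against 455 and 511 CPM. Apoe, an apolipoprotein, stood at 2208 and 464 CPM against 12604 and 9680 CPM. The exporters therefore differed in opposite directions.

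Genes of phospholipid acyl remodelling, the pathway of LPCAT3, had 0 higher and 7 lower of 13 tested (median -0.98). Lpcat3 itself stood at 25.6 and 25.3 CPM against 19.8 and 20.9 CPM and did not pass in either library. Agpat3, which makes phosphatidic acid, stood at 4.52 and 4.65 CPM against 65.6 and 54.2 CPM. Pla2g15, a lysosomal phospholipase, stood at 36.1 and 31.7 CPM against 91.6 and 93.4 CPM. Chka, choline kinase, stood at 67.4 and 52.0 CPM against 174 and 154 CPM.

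Lysosomal genes had 1 higher and 11 lower of 19 tested (median -0.80). Ctsb, cathepsin B, stood at 1187 and 1170 CPM against 4532 and 4982 CPM. Lgmn, legumain, stood at 233 and 203 CPM against 1069 and 1096 CPM. The gene that was higher was Ctss, cathepsin S, which trims the invariant chain, at 1115 and 1340 CPM against 718 and 853 CPM. A list of 8 genes for Fc receptors also held Fcna, which encodes a ficolin and not an Fc receptor. Of these 8, Fcrls was higher and Fcgr1, Fcgrt and Fcna were lower (median -0.40). Fcgrt, the neonatal receptor, stood at 62.5 and 79.4 CPM against 931 and 1009 CPM. Lysozymes and ribonucleases had 3 higher and 4 lower of 7 (median -0.78), with the ribonuclease Rnase4 at 39.5 and 33.8 CPM against 611 and 737 CPM. Of 3 genes tested from a list for body cavity macrophages, Fn1 was higher and Timd4 lower (median 0.36).

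The interferon genes had 2 higher and 14 lower of 27 tested (median -0.84), and the rule limited 3 of their number. Isg15 stood at 363 and 343 CPM against 176 and 140 CPM, and Bst2 at 143 and 166 CPM against 422 and 428 CPM. Immediate-early and heat shock genes, which respond to tissue digestion among other stimuli, had 3 higher and 12 lower of 28 (median -0.50). Egr1 stood at 1153 and 1012 CPM against 4334 and 5146 CPM, and Hspa1a at 69.6 and 45.6 CPM against 315 and 294 CPM. The 12 lower genes, among them Egr1 and Hspa1a, thus differed in the direction opposite to Il1b and Il6. Nr4a2, Nr4a3 and Hspe1 were higher, and the rest of the list did not pass. The part of this list in the comparison was not tested.

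Markers of other cell types were low. Eosinophil genes, of interest because of Ear2, summed to 16.2 and 4.65 CPM, against 1.34 and 1.99 CPM in Lyve1-positive cells. Prg2, Epx, Il5ra and Ear6 were at 0 in both libraries, so the sums came from Siglecf, Ccr3 and Alox15. These genes were too low to be tested. Neutrophil genes summed to 59.8 and 43.9 CPM, with S100a9, Ly6g, Retnlg, Mmp8 and Camp at 0 in both. T and NK cell genes summed to 51.9 and 69.3 CPM, against 45.0 and 15 CPM in Lyve1-positive cells, and their 1 tested gene Il7r was higher at 41.4 and 37.6 CPM against 5.61 and 6.81 CPM. Endothelial genes summed to 472 and 189 CPM, against 387 and 241 CPM in Lyve1-positive cells, with Fabp4 alone at 422 and 119 CPM. Epithelial genes summed to 15.8 and 28.3 CPM, mast cell and basophil genes to 8.28 and 9.72 CPM and B and plasma cell genes to 6.02 and 2.96 CPM. Cell cycle genes, limited by the rule, had 1 higher and 1 lower of 7 tested (median 0.08).

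A second comparison set the cells against 132 control and 260 LPCAT3-AKO macrophages with 2 or more Plac8 UMIs and no Lyve1, which met the gate, interferon and division limits but had no limit on Lyz1. Here 147 of 5437 genes (2.70%) were higher and 348 (6.40%) lower in both libraries, 9.10% in all, and the median log2 ratio was -0.08. Monocyte genes had 0 higher and 9 lower of 12, one of them Plac8, which defines the groups. Ly6c2 stood at 0.753 and 3.80 CPM against 150 and 1458 CPM, and Ms4a4c at 14.7 and 18.2 CPM against 270 and 491 CPM. Hp, haptoglobin, stood at 1.13 and 0.845 CPM against 77.6 and 63.5 CPM, and Chil3 at 0 UMIs against 23.9 and 70.9 CPM. Interferon genes had 1 higher and 20 lower of 28, with Irf7 at 68.9 and 112 CPM against 215 and 412 CPM. Epithelial genes moved with this comparison. Their list of 8 summed to 15.8 and 28.3 CPM in the Lyz1-high cells against 1305 and 342 CPM in the Plac8-positive ones, with Krt14 and Krt5 at 0 in both groups. All 4 that were tested were lower, namely Krt8, Krt18, Epcam and Wfdc18 (median -4.56), and Krt8, a keratin, stood at 4.14 and 8.87 CPM against 618 and 164 CPM. The part of epithelial RNA in the other differences was not tested.

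Higher than in the Plac8-positive cells were Lyz1, Retnla, Fcrls and Ear2 of the 6 markers, of which Lyz1 was partly set by the rule. Ear2 stood at 1172 and 989 CPM against 644 and 357 CPM, and Retnla at 26823 and 28720 CPM against 14317 and 11226 CPM. By rank the highest were Mucl1, Ereg, Cebpe, Lyz1 and Hr. Cebpe, a factor of granulocyte and macrophage maturation, stood at 30.1 and 54.1 CPM against 5.12 and 12.5 CPM. Ereg, epiregulin, a ligand of the same receptor as Areg, stood at 20.7 and 58.3 CPM against 1.71 and 6.48 CPM. Ccr2, Il1b and H2-Aa did not pass, with Ccr2 at 1194 and 1453 CPM and Il1b at 3514 and 3058 CPM in the Plac8-positive cells. These 3 genes thus set the Lyz1-high cells apart from Lyve1-positive ones and not from Plac8-positive ones by the size rule.

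The third comparison, chosen after the data had been seen, used 368 control and 305 LPCAT3-AKO cells that met every limit but had under 5 Lyz1 UMIs. Against these, 152 of 5504 genes (2.76%) were higher and 432 (7.85%) lower, 10.6% in all. MHC class II had 0 higher and 0 lower of 7 tested, with Cd74 at 15216 and 14290 CPM in the Lyz1-low cells. Resident genes had 0 higher and 18 lower of 19, with Cd163 at 438 and 542 CPM in the Lyz1-low cells. Retnla stood at 11602 and 11971 CPM there, a ratio of 2.31 (2.28 to 2.34) and 2.40 (2.36 to 2.43). Areg stood at 91.3 and 196 CPM, Il6 at 263 and 312 CPM and Fn1 at 1486 and 1583 CPM, all lower than in the Lyz1-high cells. Their lists did not move as blocks, beside a median of -0.05 for all genes tested. NF-kB genes had 2 higher (Il6 and Il1a) and 3 lower of 23 (median 0.10). Growth factors had 2 higher (Areg and Ereg) and 5 lower of 12 (median -0.33). The interleukin-1 family had 2 higher (Il1rn and Il1a) and 0 lower of 7 (median 0.02), and Il1b did not pass. Dendritic cell genes, from another cell type that carries class II, summed to 231 and 258 CPM in the Lyz1-low cells against 77.5 and 102 CPM in the Lyz1-high ones, with Flt3 at 0 by the rule and Itgae at 0 in both groups. Of 3 tested, Cd209a and Ccl22 were lower in the Lyz1-high cells (median -1.70), with Cd209a at 35.4 and 59.6 CPM against 148 and 155 CPM. Their part in the class II levels was not tested.

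All gated macrophages of both libraries were clustered together without the genes of the rule, giving 17 clusters. Cluster 11 took 115 control (41.2%) and 102 LPCAT3-AKO (47.7%) of the Lyz1-high Lyve1-negative cells, and cluster 16 took 132 (47.3%) and 92 (43.0%). These clusters held 2.89% and 3.23% (cluster 11) and 2.49% and 3.48% (cluster 16) of the Lyve1-positive cells. Of the Plac8-positive cells without Lyve1 they held more, 15.2% and 14.6% (cluster 11) and 21.2% and 8.85% (cluster 16). The comparison with Plac8-positive cells was thus partly between cells of the same clusters. Lyz1-high Lyve1-negative cells made up 40.2% and 37.8% of cluster 11 and 47.0% and 42.8% of cluster 16. Most of the population thus fell into 2 of 17 places, which it shared with other gated cells.

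The 2 places differed in inflammatory genes and hardly in the markers. Cells of the rule in cluster 16 had Il1b at 5361 and 4909 CPM and those in cluster 11 at 705 and 526 CPM. Il6 stood at 1454 and 1529 CPM against 201 and 181 CPM, Areg at 1250 and 1241 CPM against 137 and 91.0 CPM, and Ptgs2 at 1338 and 1129 CPM against 191 and 171 CPM. Cluster 16 had Il1rn at 739 and 776 CPM against 269 and 264 CPM. The other markers stood closer, with Lyz1 at 4867 and 4171 CPM against 3961 and 3267 CPM and Retnla at 26224 and 25759 CPM against 30076 and 32940 CPM.

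Genes lower in cluster 16 included stress, complement and resident genes. Fos, an immediate-early factor, stood at 575 and 582 CPM against 1987 and 2153 CPM. Hspa1a, a heat shock protein, stood at 22.6 and 15.5 CPM against 144 and 83.7 CPM. C1qa stood at 635 and 522 CPM against 1602 and 1233 CPM and Maf at 85.6 and 75.7 CPM against 270 and 240 CPM. Over all genes 234 of 5238 (4.47%) were higher and 153 (2.92%) lower in cluster 16. The NF-kB list had 12 higher and 0 lower of 22, the interleukin-1 family 4 and 0 of 7, complement 0 and 5 of 8, and MHC class II 0 and 1 of 7. These genes helped to make the clusters, so the counts describe the population only. The median depth was 8089 and 8794.5 UMIs in cluster 11 and 10437.5 and 12042 in cluster 16.

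**Figure D4:**
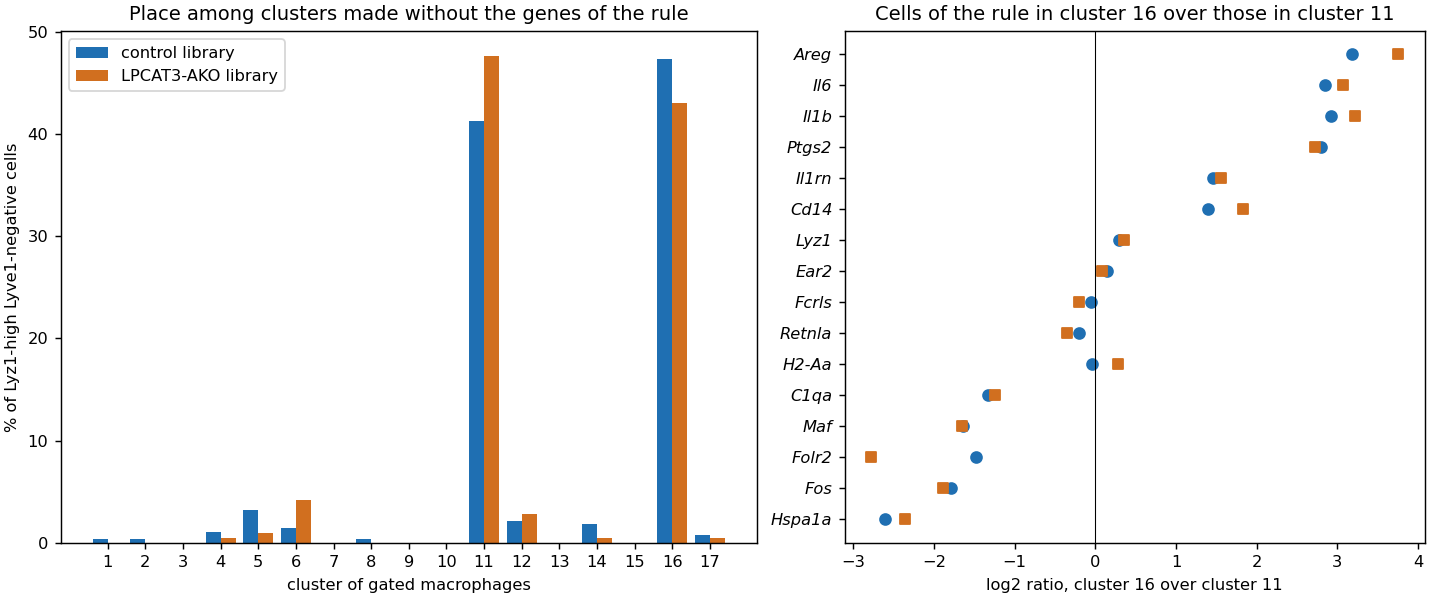
Left: percent of the Lyz1-high Lyve1-negative cells in each of 17 clusters of gated macrophages, by library. Right: log2 ratio of 16 genes, chosen after their values were seen, in the cells of the rule in cluster 16 over those in cluster 11, with circles for the control and squares for the LPCAT3-AKO library. Clusters 11 and 16 hold most of these cells, and Areg, Il6, Il1b and Ptgs2 lie far to the right (Il1b 2.93 and 3.22) while Lyz1, Ear2, Fcrls and Retnla lie near 0.

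Clustered on their own, the cells formed 6 sub-clusters of 122, 123, 77, 53, 106 and 12 cells. The first was led by Neat1, Rgs1 and Lpl and held 30.5% of the control and 17.3% of the LPCAT3-AKO cells. Sub-cluster 2 was led by Il1b, Il6 and Areg (25.1% and 24.8%) and sub-cluster 3 by C1qa, C1qc and Apoe (17.2% and 13.6%). Sub-cluster 4 combined Il1b, Il6 and C1qb (11.5% and 9.81%). Sub-cluster 5, led by AY036118, Txnip and Lars2, held 14.3% and 30.8%, and its cells had medians of 6060 and 8980 UMIs. Sub-cluster 6, with 4 control and 8 LPCAT3-AKO cells, was led by T cell genes such as Trbc2, Cd3d and Icos. Over both libraries, Trbc2 stood at 180 CPM in it and 0.614 CPM in the other cells of the rule, and Cd3d at 159 and 0.409 CPM. The doublet score marked only 2 LPCAT3-AKO cells of the rule, so most of these 8 stayed when doublets were removed. No sub-cluster was given a name. Lyz1, required of every cell, ranged from 2091 CPM in sub-cluster 3 to 4539 CPM in sub-cluster 2.

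Between the libraries, the share of this population among macrophages differed by less than counting error. Of gated macrophages it made up 7.71% (6.86 to 8.63, Clopper-Pearson) and 7.41% (6.48 to 8.42), a ratio of 0.961 (0.80 to 1.15). Of all kept cells it was 2.25% (1.99 to 2.52) and 1.83% (1.60 to 2.09), which gives a ratio of 0.817 (0.681 to 0.980). The gated macrophages as a whole were 29.1% and 24.8% of kept cells. Lyve1-positive cells with under 2 Plac8 UMIs were 34.4% and 27.8% of gated macrophages, a ratio of 0.809 (0.739 to 0.885). Plac8-positive ones without Lyve1 were 3.65% and 9.0%, a ratio of 2.47 (1.99 to 3.07). Neither share counts the 1313 and 1001 gated cells with both 1 or more Lyve1 and 2 or more Plac8 UMIs. With or without Lyve1, 1467 of 3619 and 1333 of 2889 gated macrophages had 2 or more Plac8 UMIs. The spread between animals is unknown, so whether genotype bears on any of these shares cannot be told apart from differences between single preparations.

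Lpcat3, the targeted gene, was at 25.6 CPM (19.9 to 32.4) and 25.3 CPM (19.3 to 32.6) in the cells of the rule, a ratio of 0.990 (0.688 to 1.42). A tag from 1 end of the transcript may lie outside the deleted part, and the deletion may be aimed at another cell type, so the value checks neither the deletion nor the label. None of the 6 marker genes passed the size rule between the libraries. Their log2 ratios of the LPCAT3-AKO over the control library were -0.26 for Lyz1, 0.10 for Retnla, 0.20 for Fcrls, -0.25 for Ear2, 0.01 for Il1rn and -0.22 for Ccl9. The identity genes of the population were thus within a ratio of 1.5 of each other in these libraries.

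Over all genes, 155 of 5430 (2.85%) stood higher in the LPCAT3-AKO cells of the rule and 106 (1.95%) stood lower, 4.81% in all. Centred on the median gene, whose log2 ratio was 0.05, the counts were 112 and 133. Lyve1-positive cells gave 32 of 5984 (0.535%) and 37 (0.618%), 1.15% in all, from more cells. Many of the most extreme genes came from single cells. In 5 of the 155 higher and 16 of the 106 lower genes, 1 cell held 50% or more of the UMIs.

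This was most marked at the top of the ranking. The 8 highest genes were Plvap, Kdr, Sncg, Igfbp7, Rbp7, Cxcl12, Ereg and Mmp12. A single LPCAT3-AKO cell, marked by the doublet score, held 97.0% of the UMIs of Plvap, 92.3% of Kdr, 81.3% of Igfbp7, 91.1% of Rbp7 and 76.1% of Cxcl12. Plvap and Kdr are genes of blood vessel lining cells. The 8 lowest included Spp1, Gpnmb, Prg4, Aqp1, Cxcl9, Gdpd3 and Mfge8. A single control cell, also marked, held 99.6% of the control UMIs of Spp1, 100% of Gpnmb and 82.7% of Mfge8. Without the top cell of each gene, an alternative added after the data had been seen, 143 genes were higher and 98 lower.

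Of the 8 lowest, Gdpd3, a lysophospholipase D that yields lysophosphatidic acid, did not rest on single cells. It stood at 49.7 and 6.76 CPM, a ratio of 0.136 (0.0756 to 0.229). A UMI of it was found in 31.2% and 7.48% of the cells, and its largest share in 1 cell was 3.03% and 6.25%. The log2 ratio was -2.71, and -2.74 without the top cells. In Lyve1-positive macrophages it stood at 84.6 and 8.31 CPM, a log2 ratio of -3.20. The low level in the LPCAT3-AKO library was thus shared by both populations.

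**Figure D5:**
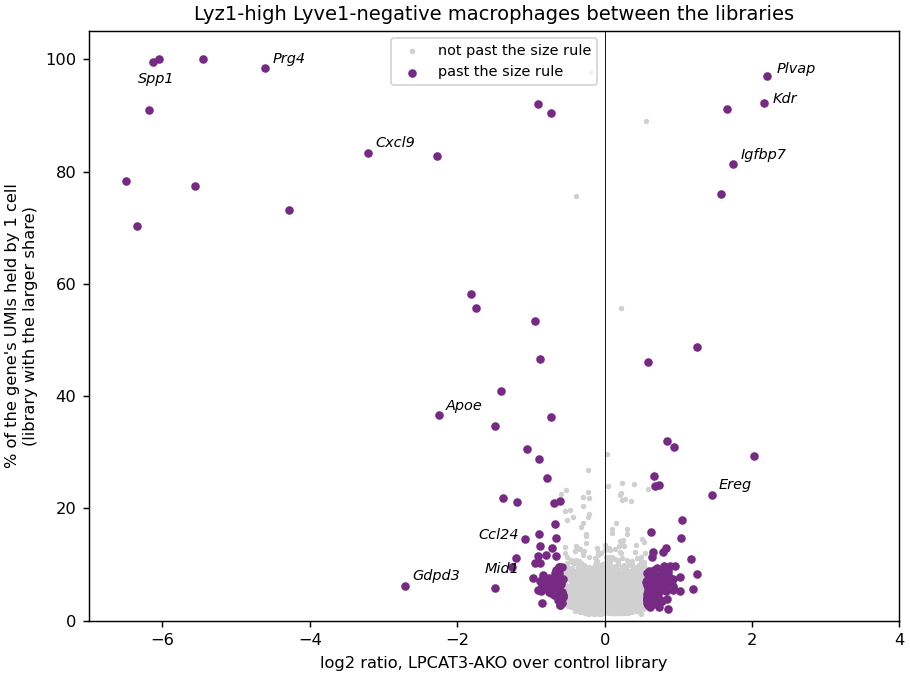
Log2 ratio of each gene in the Lyz1-high Lyve1-negative cells of the LPCAT3-AKO over the control library (x axis) against the largest percent of its UMIs held by 1 cell in either library (y axis); purple points passed the size rule and labelled genes were chosen after their values were seen. Spp1, Prg4 and Plvap sit near the top, where 1 cell holds nearly all UMIs, while Gdpd3 and Mid1 sit near the bottom and rest on many cells.

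Passing the size rule with all cells, without the top cell and with doublets removed were 112 of the 155 higher and 69 of the 106 lower genes. Genes from here to the end of the paragraph, other than those the lists name, were chosen after their values were seen. Mid1, a ubiquitin ligase bound to microtubules, stood at 62.1 and 21.5 CPM, a log2 ratio of -1.48, and -1.13 in Lyve1-positive cells. Bcl2a1d, a survival factor with near-identical copies whose reads are uncertain, stood at 259 and 143 CPM, a log2 ratio of -0.85, and -1.13 in Lyve1-positive cells. Ccl24, an eosinophil attractant, stood at 333 and 157 CPM, and Ccl7 at 172 and 65.9 CPM. In Lyve1-positive cells these chemokines did not pass, with log2 ratios of -0.12 and -0.10. The difference between the populations was not tested. On the higher side, Atp5k, a subunit of ATP synthase, stood at 185 and 335 CPM, a log2 ratio of 0.85. Lgals3bp stood at 114 and 207 CPM and Irf7 at 68.9 and 112 CPM, both induced by interferon.

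Apoe was the most abundant of the lower genes. It stood at 2208 and 464 CPM, a log2 ratio of -2.25 with all cells, -1.90 without the top cell, which held 36.6% of the control UMIs, and -1.34 with doublets removed. After thinning, 75.1% and 49.7% of the cells had an Apoe UMI, and 90.7% and 72.0% before thinning. Fibroblasts had 561 and 454 CPM and shares of 67.8% and 55.3%. The LPCAT3-AKO cells were thus near the fibroblasts of their library in level and below them in share. How much of the fibroblast Apoe is free RNA was not tested. In Lyve1-positive cells the log2 ratio was -0.38.

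By list, few members passed between the libraries. MHC class II had 0 higher and 0 lower of 7 tested, the interleukin-1 family 0 and 0 of 7 and the phospholipid list 0 and 0 of 10. NF-kB genes had 0 higher and 2 lower of 22, with Il6 at 869 and 881 CPM and Il1b at 3369 and 2825 CPM, neither of which passed. Resident genes had 0 higher and 4 lower of 15, with Igf1 at 35.8 and 18.6 CPM. Immediate-early and heat shock genes had 0 and 4 of 28, with Dnajb1 at 70.0 and 41.0 CPM. Interferon genes had 2 higher and 1 lower of 22, the lower one being Rsad2, which the rule used, at 92.6 and 50.7 CPM.

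Lipid-associated genes had 0 higher and 6 lower of 11, namely Trem2, Fabp4, Fabp5, Spp1, Gpnmb and Cd63. The top control cell of each gene held 58.1% of the UMIs of Fabp4, 55.7% of Trem2, 53.4% of Cd63 and 41.0% of Fabp5. With doublets removed, Fabp4 was higher instead, with a log2 ratio of 0.995 in place of -1.82. Cd63 then had 0.12 in place of -0.95, Trem2 -0.62 in place of -1.75 and Fabp5 -0.34 in place of -1.41, and none of these 3 passed. The count of this list therefore did not hold without the cells marked as doublets. Lpl, the most abundant gene of the list, did not pass, at 1754 and 2215 CPM.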

How the data were processed

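Single-cell libraries of 1 control and 1 LPCAT3-AKO sWAT stromal vascular fraction were analysed. The values used are the deposited UMI counts, whole numbers that were not normalized, over 32285 genes. Cell Ranger 6.1.2, Seurat 4.10 and the mm10 build are named in the submitters' processing notes, with no role given. The sources used here do not give the annotation release or the treatment of reads that fit several genes. No deposited cell annotation was used. No sequence is printed because no reference was used here.

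The members and the 31 gene lists were chosen with earlier results of these data known, and no list is independent support. Cells were kept, gated and grouped by the limits given above. UMIs were summed over cells and divided by the group's total, and log2 ratios used CPM + 1. Scanpy 1.11.5 and SciPy 1.17.1 were used. Clustering used counts scaled to 10000, 2000 variable genes, 30 components, 15 neighbours and Leiden resolution 1 (0.5 for the sub-clusters). Genes named mt-, Rpl and Rps, sex-linked genes and the genes of the rule were left out, and libraries were not integrated. Doublets were scored by Scrublet in each library, and as many of the highest scores as 0.8% of the kept cells per 1000 were marked. Thinning was to 5000 UMIs, and an undetected gene was given a floor of 3 counts. The size rule was run on simulated counts with Poisson counting error only. That run holds no variation between cells or animals, so it does not cover genes whose UMIs lie in single cells.

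Genes named were the 6 markers and the genes of the rule, the 10 highest and 10 lowest against Lyve1-positive cells by the smaller ratio of the libraries, 5 and 5 against Plac8-positive cells, 8 and 8 between libraries, and up to 4 genes a list by level among those that passed, or among all where none did. The ranks skipped mitochondrial, ribosomal, haemoglobin, immunoglobulin, sex-linked and unnamed predicted genes. A few genes that this rule chose are not reported here. Other genes of the lists are named as examples chosen after their values were seen. Alternatives changed 1 choice at a time: the Lyz1, Lyve1, gene number and mitochondrial limits, doublets, thinning, the mean over cells, the pseudocount, the minimum level and the ratio. Added after the data had been seen were the Lyve1-positive group without its Plac8 limit, leaving out the top cell of each gene, centring on the median gene, and the comparison with Lyz1-low cells. The closing section gives their effect.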

Additional observations from a re-analysis of the deposited data

Results flagged for a closer look

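In 2 genes the ratio of the LPCAT3-AKO over the control library passed the size rule in opposite directions in the Lyz1-high Lyve1-negative and the Lyve1-positive macrophages. With 1 library per group the difference was not tested. Plpp3, a lipid phosphate phosphatase, had a log2 ratio of 0.58 in the former and -0.76 in the latter. A single LPCAT3-AKO cell held 46.0% of its UMIs, and without the top cells the log2 ratio was -0.14. Igfbp7, a secreted binding protein of vessel cells, had 1.75 and -1.01. A single cell held 81.3% of its UMIs, and without the top cells the log2 ratio was 0.08.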

How the results depend on the processing

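No paired analysis was possible because each group has 1 library, and for the same reason no replicate could be left out. The log2 ratio of the share of gated macrophages was -0.06 and ranged from -0.17 to 0.05 over the alternatives. Counts against Lyve1-positive cells stayed within 1.5 times, except that no minimum level gave 2142 lower genes, and a ratio of 2 gave 296 higher and 725 lower. Between the libraries no minimum level gave 408 higher and 271 lower genes and a ratio of 2 gave 16 and 25. Of the 95 genes named for that comparison, these log2 ratios changed sign. With doublets removed they were -0.042 for Cxcl12, 0.59 for Spp1, 0.030 for Aqp1, 0.20 for Mfge8, 0.995 for Fabp4 and 0.12 for Cd63. With Lyz1 at 10 or more they were 0.47 for Spp1, 0.58 for Gpnmb, 0.26 for Mfge8 and 0.20 for Cd63. Without the top cell they were -1.28 for Plvap, -0.22 for Rbp7, -0.22 for Cxcl12 and 0.37 for Spp1. Thinned, Gas6 had 0.10. Removing doublets or the top cell leaves out such cells by construction. For the Lyz1 limit of 10 and for thinning the cause was not tested. Named genes kept their direction against Lyve1-positive cells under the alternatives run, and a few of the 109 no longer passed the size rule: H2-Aa (0.65) and Ms4a4c (-0.58) as a mean over cells, Abcg1 (0.65), Ier3 (-0.63) and Cd209a (-0.79) with no Plac8 limit on the Lyve1-positive cells, Ms4a4c thinned, Ccl2 (-0.74), Ier3 and Lgals3bp centred on the median gene, and 18 genes at a ratio of 2. Both libraries had to pass in this comparison, so a value in brackets beyond a ratio of 1.5 does not mean that the gene passed. Depth limits genes under about 20 CPM, where a few UMIs decide a ratio.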
